A study of Mus musculus with 12 samples.

Results

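Respiratory complex I (NADH:ubiquinone oxidoreductase) was followed through the mRNAs of its nuclear-encoded subunits and assembly factors in mouse oocytes. Members were all genes of the count table whose symbol began with Nduf followed by a, b, c, s, v, ab or af and a number, without pseudogenes. The rule found 46 members among 56691 genes, on 17 chromosomes. It used names only and no measured value. The members comprised 3 core subunits of the NADH-oxidizing N module, 4 core subunits of the ubiquinone-reducing Q module, 10 accessory subunits of the matrix arm, 9 of the proximal and 10 of the distal membrane arm, 8 assembly factors and 2 related genes. One of the related genes, Ndufa4, encodes a protein now counted as a subunit of cytochrome c oxidase (complex IV), and Ndufa4l2 is its paralog.

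Complex I takes electrons from NADH, passes them to ubiquinone and pumps protons across the inner mitochondrial membrane. Its matrix arm holds the flavin and the iron-sulfur clusters, and its membrane arm holds the proton channels, which are built from ND subunits encoded by mitochondrial DNA. Accessory subunits surround this core, and assembly factors join the modules but are absent from the finished enzyme. Fully grown oocytes carry many mitochondria and a stock of stored mRNA, part of which is cleared while meiosis proceeds without new transcription.

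The study asked how the m6A demethylase ALKBH5 affects maternal RNA during oocyte maturation. Oocytes of wild type mice (WT) and of mice lacking Alkbh5 (KO) were sequenced at germinal vesicle (GV), germinal vesicle breakdown (GVBD) and metaphase II (MII) stage, in 2 libraries for each of 6 groups. Both genotypes had a C57BL/6 background, and the KO was a total knockout made with CRISPR-Cas9 by removal of exon 1, so every cell of the female lacked the gene. Females were primed with pregnant mare serum gonadotropin (the methods give 3-week-old animals, whereas the reporting summary gives an older range), and each library was made from pooled denuded oocytes. Groups were taken by time in culture in M16 medium. The paper reports that most cultured KO oocytes stopped at the GV stage and that few released a first polar body. KO libraries of a later time may therefore hold many oocytes still at an earlier stage, and their share is not given. The table cannot tell fewer such cells from less RNA per cell. The study describes the 2 libraries of a group as biological replicates and the oocytes as taken from more than 1 mouse. The p-values rest on the spread between these libraries, which the fit estimates with information shared over all genes. The weight of a gene's own spread can differ between comparisons and is not given here. A small p-value therefore does not reflect the spread of 2 libraries of that gene alone.

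Total counts ranged from 28557742 to 40247810 per library, and 221927 to 838409 of them fell on the 92 ERCC sequences, synthetic RNAs added as a spike-in. Counts below are scaled to equal ERCC totals (spike-in scaled counts) unless stated otherwise. Alkbh5 ranged from 3020 to 13653 scaled counts in WT libraries and from 50.9 to 260.4 in KO libraries. All 6 oocyte markers (such as Zp3 and Gdf9) were detected in every library, and the 8 granulosa cell markers summed to between 24.5 and 74.2 CPM, which here means counts scaled to an equal endogenous total per library. The 7 heart muscle markers did not move together. Their summed level in WT was 872 and 969 CPM in GV libraries, 892 and 932 in GVBD libraries, then 126 and 219 in MII libraries. In KO it was 568 and 569 CPM in GV libraries, 406 and 686 in GVBD libraries, then 79.1 and 272 in MII libraries. Tnni3, which made up most of this sum outside the WT MII libraries, was present in every library (981.2 to 40916 scaled counts). The defining marker Myh6 reached 664 to 2425 scaled counts in 8 libraries but at most 13.0 in WT GV replicate 1, KO GVBD replicate 1 and both KO MII libraries. Of these markers, 2 were at 0 in the first of these and 4 in each of the other 3. At MII 5 of the 6 tested markers were called lower in KO, whereas Tnni3 read 1639.9 and 981.2 in WT and 9626.6 and 1736.3 in KO (2.12 ± 0.81, edgeR adjusted p = 0.288). The part of these markers in the MII results was not tested.

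The sequences around the start and the end of member transcripts are shown first, because members changed together over maturation. Of the 46 members, 40 had a promoter in the RefSeq table (GRCm38.p6, 300 bases that span the start). The letters ATGGCGG, searched on both strands, were present in 10 of these 40 promoters, against 4.1% of all 32851 promoters of that length. On the strand of the gene the letters were found in 9 members, and in 6 of them (Ndufa5, Ndufa9, Ndufb5, Ndufs4, Ndufs6 and Ndufs7) they began on an annotated start codon. In these 6 members the letters therefore overlapped coding sequence, and in any member a match is a description, not a binding site. Of the promoters with these letters on the gene's strand, the stretches of the 3 genes lowest at MII against GV in WT and of the gene with the least difference follow, each as 50 bases read 5′ to 3′ with the letters in capitals.
Ndufa9, chr6:126849095-126849144, minus strand: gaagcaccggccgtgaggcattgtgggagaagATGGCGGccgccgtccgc
Ndufb5, chr3:32737061-32737110, plus strand: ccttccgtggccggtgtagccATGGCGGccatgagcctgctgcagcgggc
Ndufs6, chr13:73328433-73328482, minus strand: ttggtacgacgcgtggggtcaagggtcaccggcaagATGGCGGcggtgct
Ndufa5, chr6:24527518-24527567, minus strand: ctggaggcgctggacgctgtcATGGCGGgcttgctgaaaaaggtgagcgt

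The median log2 change from GV to MII in WT was -2.94 in the 10 members with these letters and -2.24 in the 30 others with a promoter. The letters GCATGCGC, searched on both strands, occurred in a promoter of 5 of 40 members (12.5%) and in 2.7% of all promoters, with the same difference in counting. Those 5 were Ndufa6, Ndufa8, Ndufa11, Ndufaf4 and Ndufaf5, and their median change was -2.28, against -2.69 in the others.

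At the other end of the mRNA, the last 150 bases of the GENCODE M21 transcript were searched on the transcript strand. The cytoplasmic polyadenylation letters TTTTAT or TTTTAAT, which can control the poly(A) tail of oocyte mRNA, were present in 6 members (13.0%), against 24.7% of 10756 genes whose counts averaged at least 50. These were Ndufa2, Ndufab1, Ndufs4, Ndufc2, Ndufaf3 and Ndufaf6. In many members the 3′ untranslated region was shorter than 150 bases, for example in Ndufaf6 (52 bases) and Ndufc2 (134 bases). For these the window also held coding sequence, and the compared genes had longer transcripts. The shares are therefore no measure of whether the letters are rare in the 3′ untranslated regions of members. The polyadenylation signal AATAAA was present in 30 members (65.2%), against 67.4% of those genes. Among members that held the signal within the last 30 bases, the ends of the 2 mRNAs with the lowest and the 2 with the highest change from GV to MII in WT follow, with the signal in capitals.
Ndufb7, GRCm38, chr8:83571597-83571626, plus strand: gaAATAAAagctttgggtcacctgcctaaa
Ndufb10, GRCm38, chr17:24722060-24722089, minus strand: aaaAATAAAgtcaagagttttggacataaa
Ndufaf2, GRCm38, chr13:108052589-108052618, minus strand: tgttttaacaAATAAAaggttaaaagtcga
Ndufa1, GRCm38, chrX:37187588-37187617, minus strand: tgcatAATAAAaaattttaaaaaatctaaa

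All 46 members were detected in WT GV oocytes, and their levels per transcript length covered 3 orders of magnitude. In scaled counts per kb, Ndufa4 was highest at 42278, followed by Ndufa3 at 26647, Ndufa5 at 25791, Ndufb3 at 21746 and Ndufb11 at 20495. In the 2 WT GV libraries Ndufa4 stood at 40959 and 43596 per kb, above both values of every other member. The next 4 could be ordered only in part, since each overlapped its neighbour. Ndufa3 stood at 29344 and 23949 per kb, Ndufa5 at 29199 and 22383, Ndufb3 at 23890 and 19602, and Ndufb11 at 21016 and 19974. Both Ndufa3 values lay above both values of Ndufb3 and of Ndufb11, and both Ndufa5 values above both of Ndufb11. The lowest per kb were Ndufaf1 at 35.2, Ndufa4l2 at 92.1, Ndufaf8 at 253.7, and the core N subunits Ndufs1 at 270.7 and Ndufv1 at 276.7. The median member stood at 2896 per kb. The 5 members with the most scaled counts carried 40.4% of the summed member level. Member transcripts were short, with a median of 977 bases against 2939 bases for the 10756 genes named above. In every library 44 members had at least 10 counts and 34 had at least 100, and all 46 passed the filter on low counts in each comparison.

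**Figure D1:**
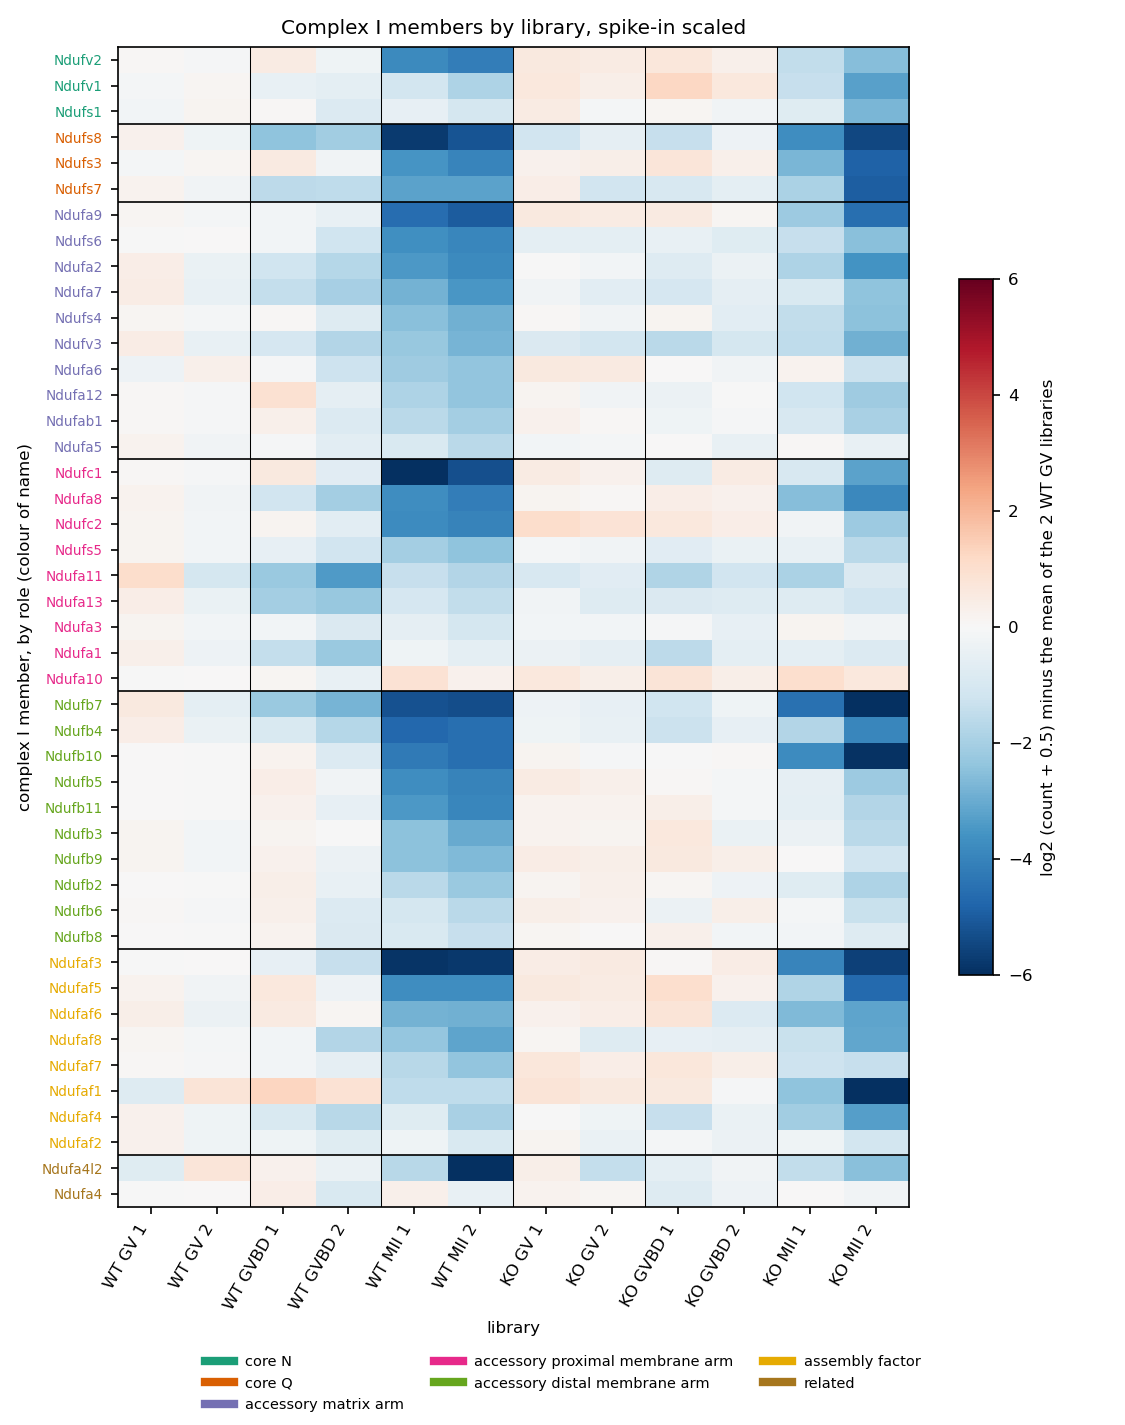
Heat map of members (rows, by role, sorted by the WT change from GV to MII) in 12 libraries (columns); colour is log2 (spike-in scaled count + 0.5) minus the mean of the 2 WT GV libraries, and values under -6 are drawn as -6. Both WT MII columns and the second KO MII column are blue in most rows, and Ndufa10, Ndufa4 and Ndufa3 are among the rows that stay pale at MII.

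The first comparison asked how these mRNAs changed over normal maturation. Of 46 members, 38 fell from GV to MII in WT oocytes and none rose (edgeR quasi-likelihood test, Benjamini-Hochberg adjusted p under 0.05 and at least a 2-fold change), where 30.5% of all 18816 tested genes were called lower. The median log2 fold change was -2.70 over members and -1.06 over all tested genes. Genes were therefore already lower on the spike-in scale as a whole. With TMM scaling, which sets the bulk of genes near no change, the median of members was -1.77, that of all genes -0.14, and 29 members were called lower and 1 higher, where 16.2% and 8.47% of all genes were.

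The largest falls were in an assembly factor, a membrane arm subunit and a core Q subunit. Ndufaf3, which acts in the assembly of the Q module, read 902.9 and 953.3 scaled counts at GV and 15.2 and 16.4 at MII in WT. This was a log2 fold change of -5.87 ± 0.67 (SE, n = 2 libraries per group; edgeR adjusted p = 1.78e-16 by Benjamini-Hochberg). Ndufc1, a small subunit at the foot of the membrane arm, went from 1013 and 943.4 to 14.4 and 25.1 (-5.61 ± 0.65). Ndufs8, which carries iron-sulfur clusters, went from 3421 and 2327 to 52.6 and 78.6 (-5.44 ± 0.60). In each of these 3 genes, chosen for the largest falls, the GV and MII libraries did not overlap.

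The falls covered both arms of the enzyme. Of the 10 distal membrane arm subunits 9 fell (median -3.18), and all 10 accessory subunits of the matrix arm fell (median -2.63). The matrix arm subunit Ndufa9, one of the most abundant members, read 26057 and 21456 scaled counts at GV and 1006 and 751.8 at MII. The smallest called falls were those of Ndufa13 (-1.29 ± 0.49, edgeR adjusted p = 0.0322), Ndufa5 (-1.22 ± 0.46, adjusted p = 0.0272) and Ndufaf4 (-1.22 ± 0.47, adjusted p = 0.0308).

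Members that were not called lower included 3 of 9 proximal membrane arm subunits and 2 of 8 assembly factors. In all there were 8: Ndufa10, Ndufa4, Ndufa1, Ndufaf2, Ndufs1, Ndufa3, Ndufb8 and Ndufaf1, with log2 fold changes from 0.60 (Ndufa10) to -1.73 (Ndufaf1). Ndufa10, a nucleoside kinase-like subunit, read 1432 and 1506 scaled counts at GV and 2690 and 1777 at MII in WT. With TMM scaling it was called higher (1.53 ± 0.18, edgeR adjusted p = 0.00373), and Ndufa1, Ndufa3, Ndufa4, Ndufaf2 and Ndufs1 also turned to positive values between 0.13 and 0.87 without a call. Ndufa4 read 24985 and 26593 at GV and 31409 and 18902 at MII, so its groups overlapped. As a result the most abundant mRNA of the set was also among the least changed. Leaving out WT GV replicate 1 or WT GV replicate 2 reduced the count of members called lower, in fits where 1 group held 1 library.

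**Figure D2:**
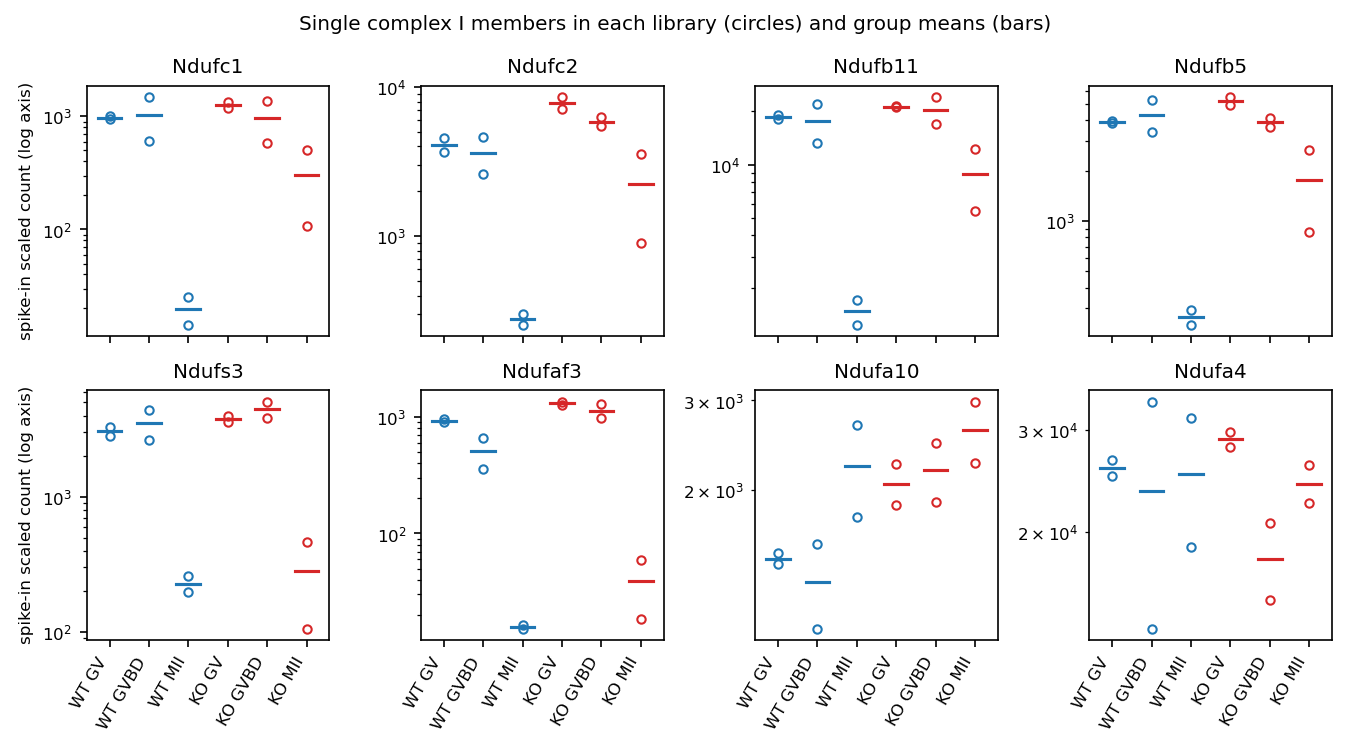
Spike-in scaled counts (log axis, a separate range per panel) of 8 members in the 12 libraries, WT in blue and KO in red; circles are libraries and bars are the means of 2 libraries. Ndufc1, Ndufc2, Ndufb11 and Ndufb5 are lower in both WT MII libraries than in both KO MII libraries, Ndufs3 and Ndufaf3 are low at MII in both genotypes, and Ndufa10 and Ndufa4 show no such drop at MII.

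The interval was then divided at GVBD. From GV to GVBD in WT no member was called by edgeR, where 0.0511% of all tested genes were. The DESeq2 Wald test called 8 lower, and its share of all genes is not given. From GVBD to MII 26 members fell and none rose, where 27.1% of 19211 tested genes were called lower, with a median of -2.29 against -1.11 over all genes. The lowest were Ndufc1 (-5.70 ± 0.86), Ndufaf3 (-5.00 ± 0.85) and Ndufa9 (-4.46 ± 0.71), each with an edgeR adjusted p of 2.55e-07 or less. Fewer were called without WT GVBD replicate 1 or without WT MII replicate 2, where 1 group held 1 library. With TMM scaling 22 were called lower, where 15.7% of all genes were, and 5 higher (Ndufa1, Ndufa4, Ndufa10, Ndufa11 and Ndufa13), where 9.9% were.

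A subset of members was already low at GVBD in WT. Ndufa11, a multi-spanning membrane subunit, read 9550 and 2262 scaled counts in the GV libraries, then 989.7 and 434.8 at GVBD, and finally 1807 and 1369 at MII. Ndufb7 started from 3843 and 1760, stood at 548.5 and 372.8 at GVBD, and ended at 68.6 and 64.1. Ndufs8 read 3421 and 2327 at GV and 533.7 and 673.0 at GVBD. In all 3 genes both GVBD libraries lay below both GV libraries. These 3 had the lowest estimates of the 46 members, so this was not independent of their choice. The edgeR adjusted p-values were 0.28 for Ndufa11 (-3.05 ± 0.73), 0.176 for Ndufb7 (-2.61 ± 0.51) and 0.163 for Ndufs8 (-2.25 ± 0.41). At the other end, Ndufaf1 (0.90 ± 0.73), Ndufa12 (0.34 ± 0.51) and Ndufaf6 (0.30 ± 0.45) had positive estimates smaller than or close to their errors.

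The same changes were then measured in KO oocytes. From GV to MII in KO 7 members were called lower and none higher, where 3.28% of 18777 tested genes were called lower. The median of members was -1.65 and that of all genes -1.17. With TMM scaling the medians were -0.61 and -0.14, and 9 members were called lower, where 3.87% of all genes were. All 7 were among the 38 called in WT, and 24 of the 31 members called in WT alone also had a log2 fold change of -1 or less in KO. The median of all tested genes in KO (-1.17) also lay below -1, so this count is not particular to members.

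The 7 members belonged to 4 structural parts and the assembly factors. Ndufaf3 was lowest (-5.07 ± 0.89), from 1256 and 1350 scaled counts at GV to 59.0 and 18.6 at MII. The distal arm subunits Ndufb7 (-4.84 ± 0.94) and Ndufb10 (-4.54 ± 0.91), the core Q subunits Ndufs3 (-3.74 ± 0.82) and Ndufs8 (-3.54 ± 0.82), the matrix arm subunit Ndufa9 (-3.46 ± 0.76) and the proximal arm subunit Ndufa8 (-3.19 ± 0.64) followed. Their edgeR adjusted p-values ran from 0.0332 to 0.0486, close to the threshold, although each estimate was several times its SE. In WT, estimates that were smaller against their SE were called from GV to MII. The counts of calls in the 2 genotypes therefore do not compare the size of the falls. The 2 KO MII libraries differed. Ndufb10 read 121.1 in replicate 1 and 26.5 in replicate 2, and Ndufs3 461.4 and 105.3, so that replicate 2 was the lower in both. More members were called without KO MII replicate 1 or without KO MII replicate 2, and fewer without either KO GV library. In these fits 1 group held 1 library, and the share of all genes called is not given.

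Between GV and GVBD in KO no member was called by edgeR, where 0.22% of tested genes were. Estimates ran from -0.68 (Ndufa4 ± 0.27, Ndufaf4 ± 0.35) and -0.66 (Ndufa6 ± 0.27) to 0.23 (Ndufs3 ± 0.27) and 0.47 (Ndufv1 ± 0.36). The DESeq2 Wald test likewise called 0. From GVBD to MII in KO 11 members were called lower and none higher, where 7.12% of 17966 tested genes were called lower. The medians were -1.40 for members and -0.88 for all genes. Ndufaf3 (-4.87 ± 0.96), Ndufb7 (-4.60 ± 0.96) and Ndufb10 (-4.49 ± 0.93) were lowest, and Ndufv1 (8.08-fold lower) and Ndufaf6 (8.40-fold lower) were among the smallest called. With TMM scaling 5 were called, where 2.46% of all genes were lower. More were called without KO MII replicate 1, and fewer without KO MII replicate 2 or either KO GVBD library.

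**Figure D3:**
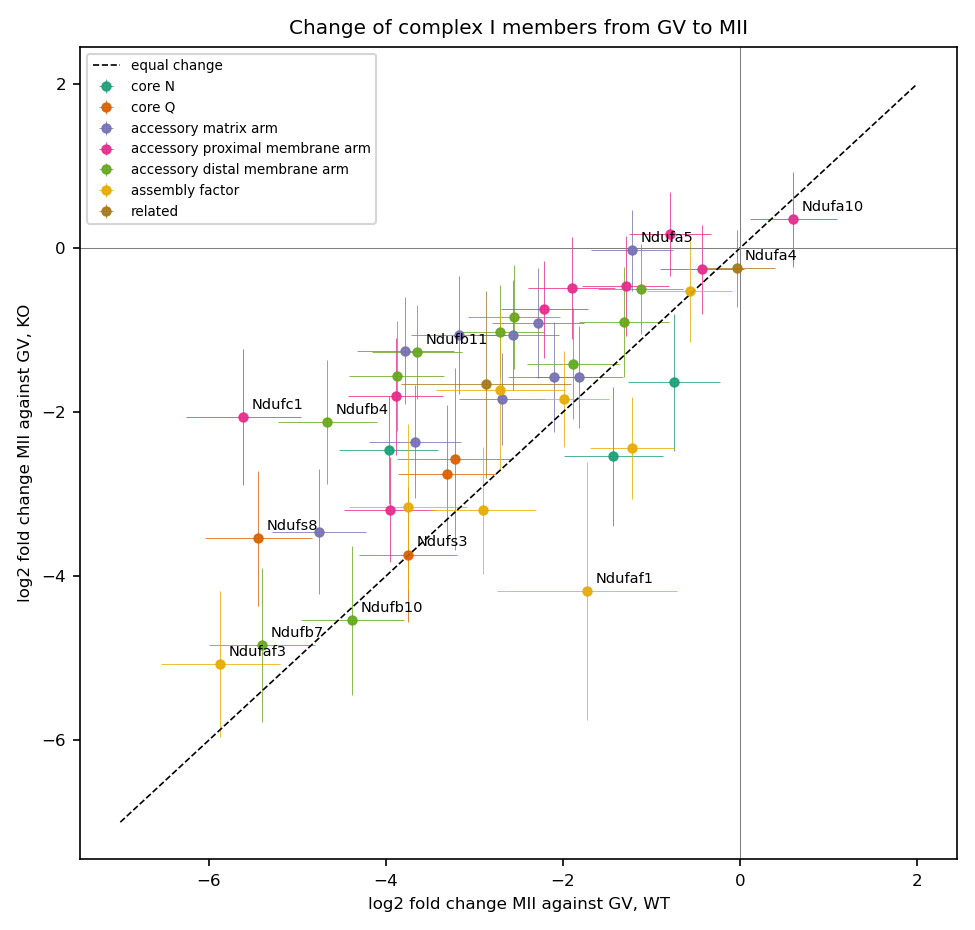
Log2 fold change from GV to MII on the spike-in scale in WT (x axis) and KO (y axis) for each of 46 members, coloured by role, with SE bars; the dashed line marks equal change. Of the 46 points, 38 lie above the line, and Ndufc1 is the farthest above it.

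The difference between the genotypes in the change from GV to MII was tested as an interaction term. No member was called by edgeR, nor was any of the 20807 tested genes (0%). The estimate was positive, meaning a smaller decrease in KO, in 38 of 46 members and in 47.2% of all tested genes. The median was 0.81 for members and -0.07 for all genes, and with TMM scaling 0.79 and -0.03. The highest estimates were those of Ndufc1 (3.55 ± 0.98, edgeR adjusted p = 0.512), Ndufb4 (2.55 ± 0.89, adjusted p = 0.652) and Ndufs6 (2.54 ± 0.70, adjusted p = 0.512).

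Roles differed in the size of this estimate. It was positive in all 10 accessory subunits of the matrix arm (median 1.31), in 9 of 10 of the distal arm (1.15) and in 8 of 9 of the proximal arm (0.96). Over the assembly factors its median was 0.10. In the core N module Ndufv2 was positive, whereas Ndufv1 (-1.11 ± 0.94) and Ndufs1 (-0.88) were negative. The lowest were the assembly factors Ndufaf1 (-2.46 ± 1.84) and Ndufaf4 (-1.22 ± 0.76). Across members, the changes in WT and KO, which share no library, had a Pearson r of 0.71 and a Spearman rho of 0.70 (n = 46 genes, which are not independent), and r was 0.53 over 17513 genes. TMM scaling called Ndufb11 and Ndufs6 as higher, where 0.303% of all genes were, and DESeq2 called 2 members. Without KO MII replicate 1 the median of members was 0.06, and without KO MII replicate 2 it was 1.32.

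Transcript length was compared with these changes as a description. Spearman's rho between the length of the member transcript and the change from GV to MII was -0.01 in WT and -0.37 in KO (n = 46 genes). With coding length it was -0.08 and -0.43, so the negative relation was seen in KO, and it was not tested.

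KO was compared with WT directly at each stage. At GV no member was called, where 0.0977% of 19452 tested genes were. The median was 0.14 for members and 0.36 for all genes, and with TMM scaling -0.21 and 0.00, so the sign of the members' median depended on the scaling. The highest were Ndufc2 (0.93 ± 0.19, edgeR adjusted p = 0.149), Ndufaf7 (0.55 ± 0.19) and Ndufa6 (0.54 ± 0.25). Ndufc2 read 4544 and 3692 scaled counts in WT and 8532 and 7126 in KO. The lowest were Ndufa11 (-1.14 ± 0.61), Ndufv3 (-1.05 ± 0.31) and Ndufs8 (-0.85 ± 0.30). DESeq2 called 1 member, as lower.

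At GVBD no member was called by edgeR, where 2.54% of 19462 tested genes were, and DESeq2 called 3 higher. The median was 0.31 for members and 0.23 for all genes, and -0.00 for members without WT GVBD replicate 2. The highest estimates were those of Ndufb7 (1.86 ± 0.56, edgeR adjusted p = 0.082), Ndufa8 (1.84 ± 0.53, adjusted p = 0.0697) and Ndufs8 (1.49 ± 0.55, adjusted p = 0.175). Ndufa8 read 6579 and 3560 scaled counts in WT GVBD and 18999 and 17217 in KO GVBD, with no overlap. Ndufb7 and Ndufs8 were among the members with low WT values at GVBD described above, and these WT libraries enter both comparisons. The lowest were Ndufaf1 (-0.80 ± 0.71), Ndufa12 (-0.52 ± 0.55) and Ndufa4 (-0.39 ± 0.53).

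At MII 1 member, Ndufc1, was higher in KO and none was lower, where 0.803% of 17566 tested genes were called. Ndufc1 (chr3:51404677-51408988, minus strand, GRCm38) read 14.4 and 25.1 scaled counts in the WT MII libraries, against 502.4 and 106.7 in those of KO. Both KO values were above both WT libraries, by a log2 fold change of 3.94 ± 1.10 (edgeR adjusted p = 0.045). At GV and GVBD the same gene stood between 577.2 and 1475 in all 8 libraries, and the genotypes overlapped at GVBD. The call was lost with TMM scaling, with no filter on low counts, with the replicate block, with crossed replicate numbers, and without WT MII replicate 1, WT MII replicate 2 or KO MII replicate 1.

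The next members at MII did not pass the test. Ndufc2, which lies beside Ndufc1 in the membrane arm, read 300.7 and 255.4 in WT and 3565 and 895.3 in KO (3.00 ± 0.89, edgeR adjusted p = 0.0789). The distal arm subunits Ndufb5 (2.73 ± 0.90, adjusted p = 0.146) and Ndufb11 (2.58 ± 0.80, adjusted p = 0.103) came next. Ndufb11 read 1724 and 1244 in WT and 12258 and 5443 in KO. In all 3 genes the lower KO library was above the higher WT library by more than the spread of the WT pair, and KO replicate 1 was the higher of the KO pair. Ndufb5 shares 616 bases with Mrpl47 on the opposite strand, whose mean was 15845 counts, and since the strand setting of the counting was not given, the reads of these genes may not be separated. Ndufc1, Ndufb5 and Ndufc2 were called without KO MII replicate 2, and DESeq2 called these 3 and Ndufb11.

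Over the whole set at MII, 37 of 46 estimates were positive, against 63.5% over all tested genes, with a median of 0.74 against 0.30 over all tested genes, or 0.45 against 0.00 with TMM scaling. Both KO MII libraries were above both WT MII libraries in 19 of 46 members on the spike-in scale, where 22.1% of all tested genes were, and below them in 3, where 10.3% were. On the CPM scale the numbers were 23 above, where 25.6% of all tested genes were, and 6 below, where 25.5% were. The median rested on 1 library: it was 0.05 without KO MII replicate 1 and 1.20 without KO MII replicate 2.

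By role, the median at MII was 1.29 in the distal membrane arm (9 of 10 positive), 1.09 in the accessory matrix arm (10 of 10) and 0.78 in the proximal membrane arm (8 of 9). With TMM scaling these 3 counts moved by at most 1, and the core Q group is not summarised here. Assembly factors were split at 4 and 4, with a median of 0.33. In the core N module Ndufv2 was positive at 2.04, whereas Ndufs1 (-0.65) and Ndufv1 (-0.62) were negative. Ndufaf1, an early assembly factor, was lowest at -1.95, but read only 15.2 and 15.4 scaled counts in the WT libraries and 8.0 and 0 in the KO libraries.

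**Figure D4:**
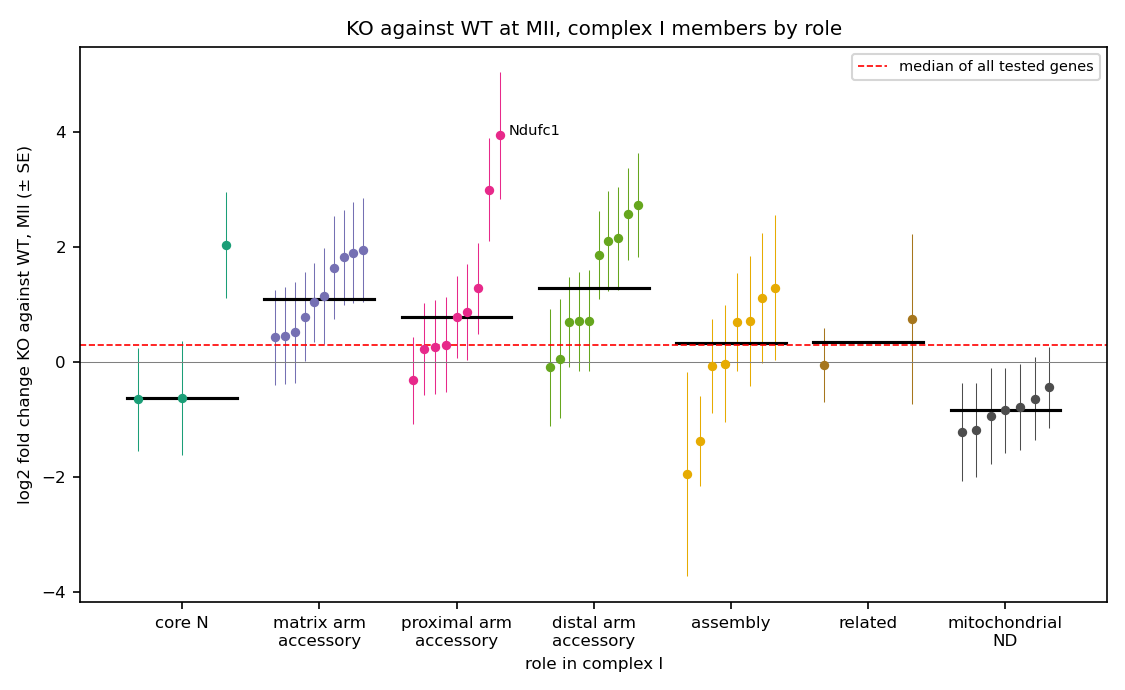
Log2 fold change of KO against WT at MII (y axis, spike-in scale, with SE) for members by role (x axis; the core Q group is not drawn), with the 7 mitochondrially encoded ND genes at the right; black bars are role medians and the red dashed line is the median of all tested genes (0.30). The distal arm has the highest median among the roles drawn (1.29), and all 7 mitochondrially encoded genes lie below 0 (median -0.84).

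The ND subunits of complex I encoded by mitochondrial DNA had another course. From GV to MII in WT no ND gene was called, and their median was -0.14, whereas with TMM scaling all 7 were positive and 1 was called higher (median 0.80). In KO the median was -1.32 on the spike-in scale and 0.13 with TMM scaling, with none called. At MII all 7 estimates of KO against WT were negative (median -0.84, or -0.86 with TMM scaling), without a call, opposite in sign to 37 of the 46 nuclear members. mt-Nd1 read 17118 and 11029 scaled counts in the WT libraries and 6867 and 13821 in the KO libraries, so its groups overlapped. At GV its libraries ranged from 9297 to 30378, a wider range than between the MII groups. The 4 libraries with little Myh6 had the lowest ND medians against WT GV on the spike-in scale (-1.26 and -0.65 in KO MII, -0.61 in KO GVBD replicate 1 and -0.42 in WT GV replicate 1), while the other 8 ranged from -0.38 to 0.75. In CPM, KO MII replicate 2 stood at 0.25, above KO GV replicate 2 (-0.19) and WT GVBD replicate 2 (0.09), and the other 3 remained the lowest. Of the other heart muscle markers, Tnnt2, Actc1, Ankrd1, Myl2 and Nppa were also lowest in these 4 libraries on the spike-in scale. Tnni3 did not follow this order and was highest in WT GV replicate 1 (40916 scaled counts). The part of these markers of another tissue in the ND values was not tested.

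Other genes of the respiratory chain were compared as lists. Of 52 nuclear genes of complexes II to V, 50 were tested from GV to MII in WT and 33 were called lower, with a median of -2.07. At MII, 4 of them (Atp5j2, Atp5j, Cox7c and Cox7b, small subunits of ATP synthase and cytochrome c oxidase) were higher in KO, with a median of 0.59 over the list, and with TMM scaling 1 was called and the median was 0.27. Of the 10 further assembly factors (for example Tmem126b and Nubpl), 7 were called lower from GV to MII in WT and 1, Tmem126b, in KO (-5.01 ± 0.76). None of them was called between genotypes at MII (median 0.76). Of 6 regulators of mitochondrial biogenesis (Nrf1, Gabpa, Esrra, Ppargc1a, Ppargc1b and Tfam), 2 fell from GV to MII in WT, and of the 5 tested at MII none was called between genotypes (median -0.03).

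**Figure D5:**
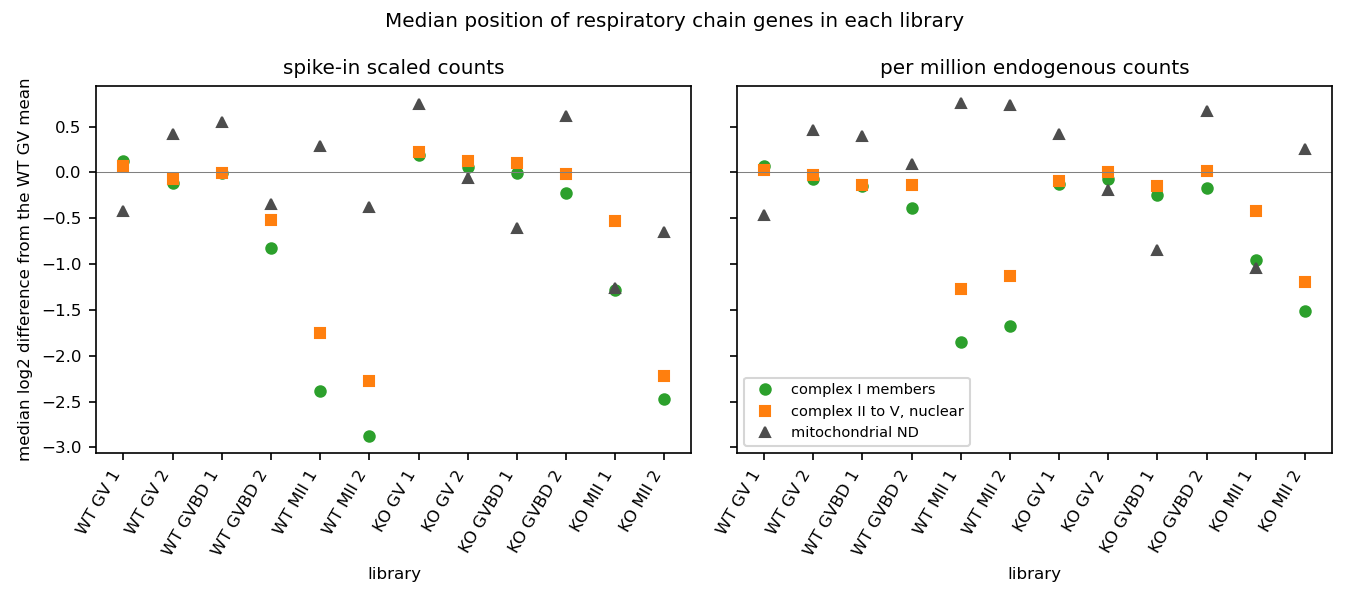
Median log2 difference from the mean of the 2 WT GV libraries (y axis) in each of 12 libraries (x axis), for complex I members, nuclear genes of complexes II to V and mitochondrially encoded ND genes, on the spike-in scale (left) and in CPM of endogenous counts (right). On the left the complex I medians are -2.38 and -2.88 for the WT MII libraries against -1.28 and -2.47 for those of KO, and on the right they are -1.85 and -1.68 against -0.96 and -1.51.

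In sum over the members, the level was 7202 and 6131 CPM in WT oocytes at GV, 5406 and 4913 after GVBD, and then 3445 and 3497 at MII. KO oocytes gave 5740 and 6112 at GV, then 5466 and 5812 after GVBD, and lastly 4577 and 4444. In CPM both KO MII libraries were above both WT MII libraries. At GV the WT libraries were the higher, but closely so (6131 against 6112). In spike-in scaled counts the genotypes overlapped at MII, with 101991 and 66412 in WT and 162505 and 98165 in KO. They also overlapped at GV, with 305305 and 245038 in WT and 296117 and 274798 in KO. The 5 members with the most counts weigh heavily in this sum, among them Ndufa4, which was not called from GV to MII in either genotype.

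The stages were then pooled, with stage kept as a term of the model. No member was called between KO and WT by edgeR, where 1.26% of 22004 tested genes were, and DESeq2 called 1. The median was 0.42 for members and 0.29 for all genes, and 0.13 and 0.02 with TMM scaling. Ndufc2 had the highest estimate (1.51 ± 0.42, edgeR adjusted p = 0.0916), followed by Ndufc1 (1.21 ± 0.66) and Ndufb9 (0.98 ± 0.32). Ndufaf1 (-0.70 ± 0.67), Ndufaf4 (-0.36 ± 0.36) and Ndufv3 (-0.19 ± 0.33) had the lowest.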

How the data were processed

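The deposited table held raw counts of reads for each gene and ERCC sequence in 12 libraries, which the authors had not normalized. Upstream, the authors used Cutadapt for trimming, Hisat2 for alignment to GRCm38 (mm10) joined with the ERCC sequences, SAMtools to keep unique alignments, and StringTie. The submitters' processing notes list cutadapt 1.9, HISAT2 2.0.4 and StringTie 1.3.4d, whereas the reporting summary lists other versions. The annotation release, the strand setting and the step that made whole counts are not given in the sources used here. The methods describe a template-switching protocol for small oocyte pools, while the labels describe a bulk RNA preparation, and the pool size differs between text and legend. Amplified reads are not independent molecules, so depth does not bound the sampling error. Unique alignment lowers counts of genes with near-identical copies.

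Symbols were matched to 52073 genes (91.9%). Of the pattern's matches, 5 were left out as pseudogenes. One of them, Ndufb1-ps, is listed by RefSeq as protein-coding Ndufb1, and its values are given under the other observations. Positions and lengths are those of GENCODE M21, of the principal transcript. By that annotation 22 members share bases with another gene. Counts and medians cover all 46 members, of which 1 is not reported here by name. Members, lists and tests were chosen with earlier results of these data known.

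Each comparison was fitted on all genes by the quasi-likelihood functions glmQLFit and glmQLFTest of edgeR 4.0.16 in R 4.3.3, with library sizes proportional to summed ERCC counts and filterByExpr on the compared groups. A gene was called at a Benjamini-Hochberg adjusted p under 0.05 and an absolute log2 fold change of at least 1, in two-sided tests. The SE is the log2 fold change divided by the square root of F. The fit was tested on simulated data. Values ± are SE with n = 2 libraries per group. Named with tests were all called members where at most 10 were called, otherwise the 3 highest and 3 lowest, and the 5 highest and 5 lowest levels per kb in WT GV. Other members named were chosen after their values were seen. Alternatives were TMM scaling, no filter on low counts (all genes with at least 1 count), the DESeq2 1.42.0 Wald test with ERCC size factors, all 12 libraries in 1 model, the replicate number as a block, and the omission of single libraries. Except where a share of all genes is printed beside them, counts under these alternatives do not set members against other genes. Crossed replicate numbers were added after seeing the data. No 2 libraries were identical, and no column was left unused.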

Additional observations from a re-analysis of the deposited data

How the results depend on the processing

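With 2 libraries per group, counts of called members near the threshold moved with the test, while the median of members kept its sign in every alternative except KO against WT at GV (-0.21 with TMM scaling) and at GVBD (-0.00 without WT GVBD replicate 2). The counts below cover members only, without the share of all genes called under the same setting. They show how calls moved, not how members compare with other genes. On leaving out a library, 1 group held 1 library. Calls of members from GV to MII in WT stayed within 1.5 times of 38 in all alternatives but leaving out a library (20 to 38). The same held from GVBD to MII in WT (26 called, 13 to 25 on leaving out a library).

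From GV to MII in KO, where 7 were called, no filter on low counts gave 17, DESeq2 18, all 12 libraries in 1 model 20 and the replicate block 17, and leaving out a library gave 0 to 37. From GVBD to MII in KO, where 11 were called, TMM scaling gave 5, all 12 libraries in 1 model 17, and leaving out a library 0 to 32. For KO against WT at MII (1 called), TMM scaling, no filter, the replicate block and crossed numbers gave 0, DESeq2 4, all 12 libraries in 1 model 6, and leaving out a library 0 to 3.

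The other comparisons called 0 members. KO against WT at GV gave 1 with no filter and 1 with DESeq2, and 0 to 2 on leaving out a library. At GVBD these were 2 and 3, and 0 on leaving out any library. From GV to GVBD in WT, no filter and DESeq2 gave 8 each, the replicate block 5, and leaving out a library 0 to 2, and in KO leaving out a library gave 0 to 2. The interaction of genotype with the GV to MII change gave 2 with TMM scaling, 1 with no filter, 2 with DESeq2, and 0 to 6 on leaving out a library. Over all stages no filter gave 2, DESeq2 1, the replicate block 1, and leaving out a library 0 to 2. The cause of these differences was not tested.

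Of the single members named by rule, 6 estimates that were not called changed sign, all on leaving out 1 WT library. They were, with the range on leaving out a library, Ndufa11 at GV (-1.84 to 0.24, highest without WT GV replicate 1), Ndufa12 (-1.07 to 0.39) and Ndufa4 (-0.90 to 0.40) at GVBD, both highest without WT GVBD replicate 1, Ndufaf6 (-0.01 to 0.71, lowest without WT GV replicate 2) and Ndufa12 (-0.56 to 0.90, lowest without WT GVBD replicate 1) from GV to GVBD in WT, and Ndufv3 over all stages (-0.48 to 0.03, highest without WT GV replicate 1).

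Same-numbered libraries had deviations correlated between -0.22 and 0.21 over 13273 genes, so the replicate numbers do not pair them, and the block changed no other count by more than 1.5 times. At GV and MII, where the correlation was -0.22 and -0.18, crossed numbers called 0 members each.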

Other observations

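Ndufb1-ps, which GENCODE M21 names as a pseudogene locus and RefSeq as the protein-coding subunit gene Ndufb1, was left out of the members by the rule. WT libraries had 29739 and 26231 spike-in scaled counts at GV, then 38527 and 22975 after GVBD, and only 1340 and 750.4 at MII. KO libraries had 40637 and 37036 scaled counts at GV, then 47165 and 29319 after GVBD, and 11566 and 2645 at MII. Both WT MII libraries were thus below all other libraries, and both KO MII libraries were above both WT MII libraries.

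Among the other loci left out, Ndufb4c at MII read 4.0 and 16.9 scaled counts in the WT libraries and 68.1 and 33.7 in the KO libraries, and Ndufa11b was at 0 in all 12 libraries.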
